A study of Mus musculus with 4 samples.

Results

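The genes described here are 50 genes of DNA replication and S phase, measured in mDCT cells, an immortalised mouse cell line of the distal convoluted tubule of the kidney. A member was taken where a probe set of the array was annotated with its symbol alone, and its brightest probe set by mean log2 signal over the 4 arrays was used. Of the 50 genes 49 had such a probe set, out of 18193 genes on the array that did. The exception was Chaf1a, the large subunit of chromatin assembly factor 1, which was not analysed here. All 49 passed the filter on low values, a mean signal of at least 55.9, as did 11057 genes in all. The choice of members did not use measured values of these arrays, but it was made with other results of the series known.

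Each of the 4 treatments was measured on 1 array. In the first, cells received 100 nM aldosterone for 3 h after a 2 h pretreatment with 5 µM spironolactone, an antagonist of the mineralocorticoid receptor, and this library is called spironolactone below. The others were a vehicle control with ethanol, 1 nM aldosterone and 100 nM aldosterone, each for 3 h. All 4 cultures, ethanol included, overexpressed a FLAG-tagged human form of that receptor, introduced by transfection 48 h before the pretreatment step; which promoter drives it is not given in the sources used here. No library received spironolactone alone. With 1 library per treatment no difference can be set against the spread between replicates, so differences carry no p-value or error, and each is one between 2 libraries. The number of arrays limits the precision.

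Before a cell copies its DNA, the origin recognition complex, Cdc6 and Cdt1 load the ring-shaped MCM helicase onto origins in G1. On entry into S phase, Cdc45 and the GINS complex join the helicase, and primase, the replicative polymerases, the PCNA clamp and its loader RFC copy both strands. Many of these genes are switched on together at the G1 to S transition by E2F transcription factors, which the cyclin D and cyclin E kinases release from the retinoblastoma protein. Their transcripts are abundant in dividing cell lines and low in the mostly quiescent epithelium of the adult nephron.

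The 4 arrays were alike: the Pearson correlation of log2 signals over the 11057 genes lay between 0.991 and 0.992 for the 6 pairs of libraries. Slc12a3, the thiazide-sensitive cotransporter that defines the distal convoluted tubule, had signals of 4.35 with spironolactone, 3.93 in ethanol, 17.2 with 1 nM and 12.1 with 100 nM aldosterone, all under the filter, as was Calb1. Of 10 measured markers listed for that segment 6 passed it, among them Wnk1, but Pvalb, Trpm6 and Egf, at 38.3 to 102, lay near it. The list also held Umod, labelled as thick ascending limb, which did not pass. Of the epithelial markers 3 of 6 passed, with Cdh16 at 2406 to 2667 and Pax8 at 744 to 909, and Cdh1, Krt8 and Krt18 did not. Of the markers of other cells that passed the filter, there were 0 of 4 for collecting duct principal cells, 0 of 4 for intercalated cells, 1 of 4 for endothelium, 1 of 4 for leukocytes, 1 of 6 for fibroblasts (Vim) and 5 of 6 for proximal tubule, among them Aqp1. Of those that passed, Slc34a1, Cubn and Slc5a2 of the proximal tubule, Kdr of endothelium and Cd68 of leukocytes also lay near the filter, at 44.6 to 106. Vim was bright, at 21509 to 23768.

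Across the 4 libraries the replication genes were nearly flat. The span of a gene, its highest minus its lowest log2 signal of the 4, had a median of 0.13 over the 49 members, or 1.09-fold. Over all genes that entered the median span was 0.22 (1.17-fold), and over the 6936 genes above the 75th percentile of signal, where 46 of the 49 members lay, it was 0.16 (1.12-fold). The span was under 1.1-fold in 27 members (55.1%), against 27.4% of all genes and 40.7% of those above the 75th percentile. A difference of at least 25%, the higher signal over the lower, is used as a threshold below. The span reached it in 6 members (12.2%), against 32.5% and 12.3%, and 1.5-fold in 1 member, E2f1 (2.04%), against 12.1% and 1.54%. Dim genes varied more between these arrays than bright ones, with a median span of 0.73 in the dimmest of 20 bins of signal and 0.088 in the brightest. Within the 20 bins of signal, 26 of the 49 members lay under the median span of their bin. Above its 95th percentile lay 2 members (4.08%), E2f1 and Ccnd1, a share near the 5.06% of all genes. Beside genes of like signal, then, 53.1% of the members were under the bin median.

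**Figure D1:**
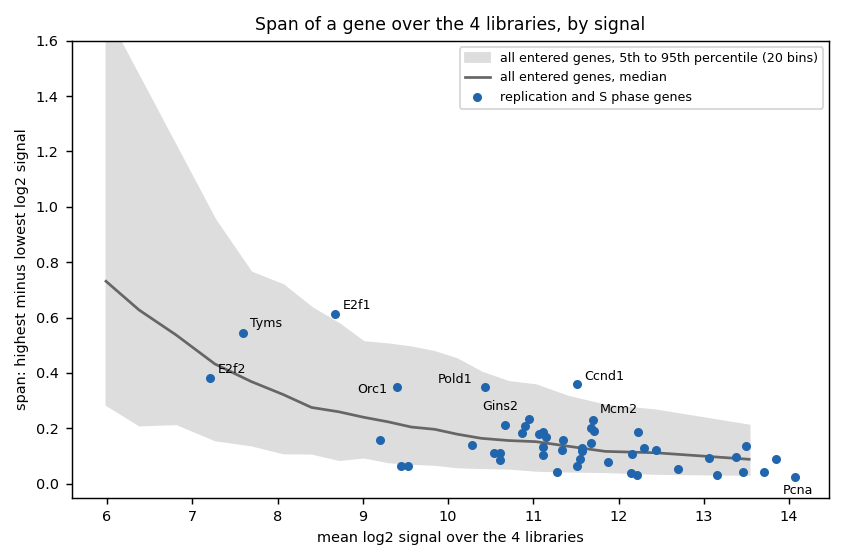
Span of each replication gene over the 4 libraries (highest minus lowest log2 signal, points) against its mean log2 signal, with the median (line) and the 5th to 95th percentile (grey band) of all 11057 genes in 20 bins of signal. The members lie around the median line, with E2f1 and Ccnd1 above the band.

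The E2F factors had the widest median span of the groups by role, 0.38. E2f1, an activator of S phase genes, had a signal of 394 with spironolactone, and across the doses 490 in ethanol, 321 with 1 nM and 453 with 100 nM aldosterone. It was highest in ethanol and lowest with 1 nM, 1.53-fold apart. Its second probe set gave 241 with spironolactone, 298 in ethanol, 203 with 1 nM and 235 with 100 nM aldosterone, so the ethanol library was the highest and the 1 nM library the lowest in both. The log2 difference of 1 nM from ethanol was -0.61 and -0.55 in these probe sets, and that of spironolactone from ethanol was -0.32 and -0.31. For 100 nM against ethanol they gave -0.11 and -0.34. The order of spironolactone and 100 nM aldosterone depended on the probe set.

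E2f2, a second activator, was dim, with signals of 150 with spironolactone, 144 in ethanol, 171 with 1 nM and 132 with 100 nM aldosterone. The second probe set had 173, 135, 148 and 117 in these libraries. The 100 nM library was the lowest in both, by 0.38 and 0.33 below 1 nM on the log2 scale, and against 1 nM the E2f2 probe sets thus differed the other way from those of E2f1, which were higher with 100 nM by 0.50 and 0.21. E2f3, another activator, had 700 with spironolactone, 713 in ethanol, 682 with 1 nM and 710 with 100 nM aldosterone, a span of 0.06. E2f1 was the only member lower by 25% or more with 1 nM than in ethanol.

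Promoter sequences were compared for letters that these genes share. RefSeq promoters (GRCm38.p6, 250 bases before to 50 after a start) were at hand for 41 of the 50 genes, 9 of them with several starts. The E2F consensus was searched as TTTCCCGC, TTTCGCGC, TTTGCCGC and TTTGGCGC on both strands, and its core as the same letters without the first T, so that each consensus match also holds a core match and matches on opposite strands can overlap. A consensus match stood in 17 of the 41 genes (41.5%), against 2.6% of the 27025 genes with a promoter in the table, and a core match in 27 (65.9%), against 10.9%. Among the G2 and mitosis genes the consensus stood in 1 of 29, and among the other replication genes in 17 of 55. A palindromic hormone response element, GNACA and TGTNC with 3 bases between them, stood in 0 of the 41 genes and in 0.537% of all. The median span of members with a core match was 0.13 (n = 26) and of those without 0.11 (n = 14), leaving out Chaf1a. A match is a description of letters and shows no binding, and where none was found only these letters were absent from this window.

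The sequences printed are those of the members with the widest spans (E2f1, Tyms and E2f2) and the narrowest (Pcna, Rrm1 and Rfc5) that had a promoter in the table, and of Mcm6 and Orc1, added for their matches. Capitals mark matches to the E2F core. The windows of E2f1, Tyms, Pcna and Rfc5 held none. For E2f1 a single start was at hand, and its window overlaps the gene's own protein-coding sequence. That window, though labelled a promoter below and counted among those with no match, is thus not the sequence upstream of the gene. The missing match there says nothing of the E2f1 upstream sequence, which was not searched. E2f2 had several starts in the table, and the first is shown, which holds a match where the other does not.
E2f1 promoter, chr2:154569377-154569676 (- strand): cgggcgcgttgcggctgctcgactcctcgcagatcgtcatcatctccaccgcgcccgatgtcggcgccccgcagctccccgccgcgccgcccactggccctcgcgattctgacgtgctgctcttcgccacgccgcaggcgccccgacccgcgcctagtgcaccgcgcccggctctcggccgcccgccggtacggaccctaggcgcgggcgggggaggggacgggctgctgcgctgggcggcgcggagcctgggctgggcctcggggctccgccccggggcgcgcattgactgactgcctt
Tyms promoter, chr5:30073576-30073875 (- strand): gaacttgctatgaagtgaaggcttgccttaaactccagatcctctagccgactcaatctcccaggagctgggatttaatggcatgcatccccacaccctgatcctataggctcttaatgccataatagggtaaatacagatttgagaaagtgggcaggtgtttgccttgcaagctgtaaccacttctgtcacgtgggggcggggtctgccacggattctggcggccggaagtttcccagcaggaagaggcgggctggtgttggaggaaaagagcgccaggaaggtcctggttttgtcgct
E2f2 promoter, chr4:136172024-136172323 (+ strand): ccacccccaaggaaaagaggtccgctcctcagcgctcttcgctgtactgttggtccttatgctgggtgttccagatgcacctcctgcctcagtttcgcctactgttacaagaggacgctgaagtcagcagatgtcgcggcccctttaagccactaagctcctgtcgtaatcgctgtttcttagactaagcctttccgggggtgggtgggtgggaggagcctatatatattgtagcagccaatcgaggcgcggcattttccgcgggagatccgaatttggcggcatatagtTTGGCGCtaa
Pcna promoter, chr2:132253131-132253430 (- strand): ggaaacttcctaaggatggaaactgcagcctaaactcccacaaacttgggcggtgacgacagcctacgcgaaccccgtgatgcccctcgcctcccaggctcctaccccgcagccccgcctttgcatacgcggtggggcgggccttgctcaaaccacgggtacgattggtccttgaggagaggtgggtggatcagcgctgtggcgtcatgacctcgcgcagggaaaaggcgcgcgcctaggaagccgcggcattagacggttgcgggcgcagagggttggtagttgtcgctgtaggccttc
Rrm1 promoter, chr7:102441445-102441744 (+ strand): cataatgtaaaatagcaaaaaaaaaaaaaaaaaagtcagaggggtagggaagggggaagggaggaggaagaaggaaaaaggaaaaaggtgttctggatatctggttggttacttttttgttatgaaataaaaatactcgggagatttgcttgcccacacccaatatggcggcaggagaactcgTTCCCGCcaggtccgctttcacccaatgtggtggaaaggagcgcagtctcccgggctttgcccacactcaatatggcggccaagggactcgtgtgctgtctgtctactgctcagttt
Rfc5 promoter, chr5:117388974-117389273 (- strand): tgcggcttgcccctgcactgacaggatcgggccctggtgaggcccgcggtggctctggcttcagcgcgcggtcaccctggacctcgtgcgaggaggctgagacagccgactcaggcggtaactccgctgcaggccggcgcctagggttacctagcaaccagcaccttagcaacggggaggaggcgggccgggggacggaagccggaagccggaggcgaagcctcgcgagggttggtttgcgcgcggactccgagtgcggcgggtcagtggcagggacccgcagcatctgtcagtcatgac
Mcm6 promoter, chr1:128359656-128359955 (- strand): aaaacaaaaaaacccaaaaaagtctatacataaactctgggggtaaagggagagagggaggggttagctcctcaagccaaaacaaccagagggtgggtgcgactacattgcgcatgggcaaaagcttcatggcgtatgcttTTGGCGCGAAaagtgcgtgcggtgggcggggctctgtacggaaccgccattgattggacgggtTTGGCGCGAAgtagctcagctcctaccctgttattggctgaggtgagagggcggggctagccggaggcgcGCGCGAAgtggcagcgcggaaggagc
Orc1 promoter, chr4:108579204-108579503 (+ strand): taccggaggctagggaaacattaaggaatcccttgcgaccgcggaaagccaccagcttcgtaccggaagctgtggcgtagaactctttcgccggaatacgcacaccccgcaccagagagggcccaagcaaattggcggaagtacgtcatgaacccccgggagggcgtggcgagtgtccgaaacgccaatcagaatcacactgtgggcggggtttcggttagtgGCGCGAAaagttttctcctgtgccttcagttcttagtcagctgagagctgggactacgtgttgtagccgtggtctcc

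Cyclins and Cdk2 drive the G1 to S transition. Ccnd1, which encodes cyclin D1, had signals of 3466 with spironolactone, 2701 in ethanol, 2879 with 1 nM and 2699 with 100 nM aldosterone. The spironolactone library stood above the other 3, by 0.36 over both ethanol and 100 nM aldosterone and by 0.27 over 1 nM on the log2 scale. The other Ccnd1 probe sets did not give that pattern: the second had 1713 with spironolactone, 1611 in ethanol, 1565 with 1 nM and 1682 with 100 nM, and the dimmest 1189, 1323, 1089 and 1133 in these libraries. Against 100 nM aldosterone spironolactone was higher by 0.03 and 0.07 in them. Among the markers of the distal convoluted tubule, the kinase Wnk1 was also highest with spironolactone, at 8372, against 6887 in ethanol, 7413 with 1 nM and 6878 with 100 nM aldosterone. The summed signal of the 10 measured markers was 9146 with spironolactone, 7760 in ethanol, 8325 with 1 nM and 7788 with 100 nM aldosterone, most of it Wnk1. Of the other 5 that passed the filter, Wnk4, Trpm6 and Pvalb were lowest with spironolactone, and Stk39 and Egf were not highest there. Their part in the Ccnd1 value was not tested.

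Ccne2, a cyclin E, had 1931 with spironolactone, 1782 in ethanol, 2059 with 1 nM and 1906 with 100 nM aldosterone, lowest in ethanol and highest with 1 nM (a log2 difference of 0.21). Ccne1, the other cyclin E, spanned 0.06. Cdk2, their kinase partner, had 2141 with spironolactone, 2404 in ethanol, 2159 with 1 nM and 2362 with 100 nM aldosterone. Its spironolactone and 1 nM libraries lay together below the other pair, with log2 differences from ethanol of -0.17 and -0.16.

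**Figure D2:**
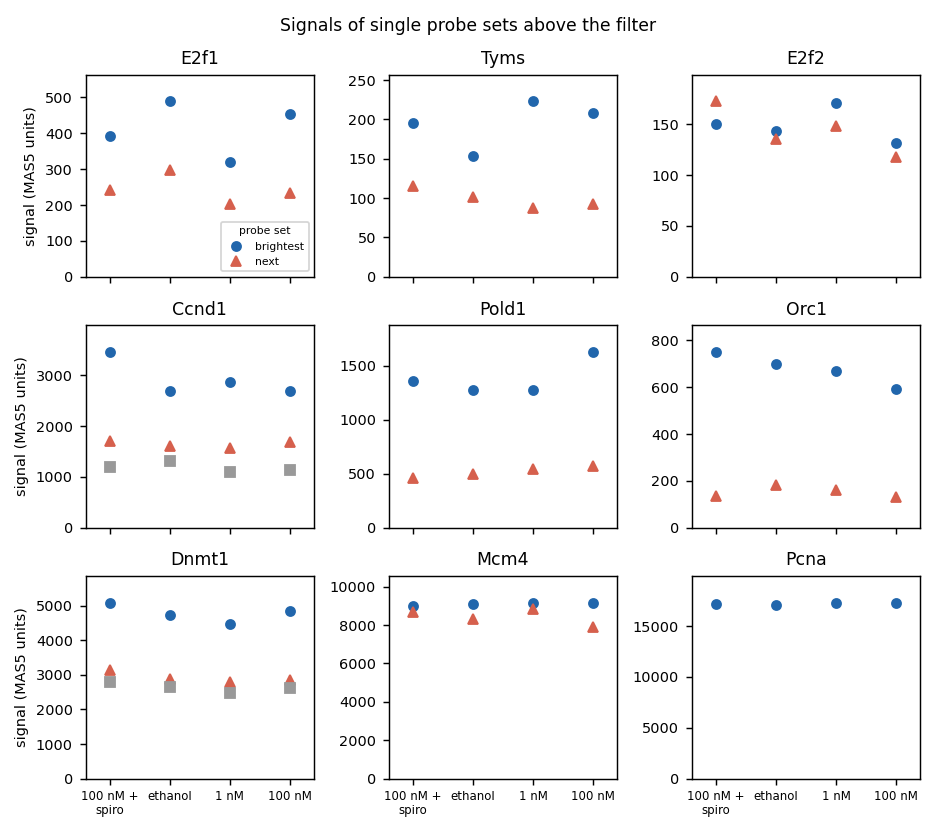
Signals of every probe set above the filter for the 6 members with the largest span and for Dnmt1, Mcm4 and Pcna. Within a panel the libraries run as 100 nM aldosterone after spironolactone, ethanol, 1 nM and 100 nM aldosterone, the linear axis starts at 0, and each point is 1 array. Both E2f1 probe sets are lowest with 1 nM and highest in ethanol, while only the brightest Ccnd1 probe set stands out with spironolactone.

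Of the genes that load and activate the helicase, Orc1, the origin recognition subunit whose amount is limited to G1 and early S phase, varied most. Its signals were 751 with spironolactone, 700 in ethanol, 669 with 1 nM and 590 with 100 nM aldosterone. The 100 nM library was the lowest, by 0.25 below ethanol and 0.35 below spironolactone on the log2 scale. The second probe set had 136 with spironolactone, 180 in ethanol, 160 with 1 nM and 130 with 100 nM; it too was lowest with 100 nM, by 0.47 below ethanol, but stood only 0.06 higher with spironolactone. Orc2 and Orc6, other subunits of the complex, spanned 0.11 and 0.08.

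Gins2, a subunit of the GINS complex, had 2121 with spironolactone, 2020 in ethanol, 2005 with 1 nM and 1804 with 100 nM aldosterone. Its low value with 100 nM was absent from the second probe set, with 1571, 1621, 1567 and 1615 in these libraries. Gins1 had 1863 with spironolactone, 1994 in ethanol, 1756 with 1 nM and 1875 with 100 nM aldosterone, and Gins3 566, 629, 564 and 597. Both were highest in ethanol and lowest with 1 nM, by 0.18 and 0.16 on the log2 scale, and the second probe set of Gins3 differed by 0.13 the same way. That of Gins1 differed by -0.85 at signals of 51.9 with 1 nM against 93.5 in ethanol, near the filter.

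Cdt1, the loader that licenses origins, had 11470 with spironolactone, 12207 in ethanol, 11095 with 1 nM and 11451 with 100 nM aldosterone. Gmnn, which encodes its inhibitor geminin, had 4356, 4592, 4614 and 4689. Cdt1 was highest in ethanol and Gmnn with 100 nM aldosterone, and neither spanned more than 0.14. Cdc6, the loading ATPase, spanned 0.07, Cdc45, the helicase partner, 0.11, and Mcm10, which helps to start the helicase, 0.14.

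The subunits of the MCM helicase had spans of 0.03 to 0.23. Mcm4 had signals of 8975 with spironolactone, 9073 in ethanol, 9168 with 1 nM and 9128 with 100 nM aldosterone, a span of 0.03, though its second probe set spanned 0.17. Mcm7 had 14634, 15254, 14355 and 14843 in these libraries, a span of 0.09, highest in ethanol. Mcm6 spanned 0.05, Mcm5 0.10 and Mcm3 0.13. Mcm2 had the widest span of them, with 3228 with spironolactone, 3090 in ethanol, 3386 with 1 nM and 3627 with 100 nM aldosterone. It was highest with 100 nM, by 0.23 over ethanol on the log2 scale. Its second probe set had 2118 with spironolactone, 2177 in ethanol, 1982 with 1 nM and 2174 with 100 nM and did not differ between 100 nM and ethanol (-0.0023).

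Pcna, the sliding clamp that tethers the polymerases, had the smallest span of all members. Its signals were 17122 with spironolactone, 17028 in ethanol, 17303 with 1 nM and 17295 with 100 nM aldosterone, 1.02-fold apart at most. The clamp loader subunit Rfc5 had 4568, 4605, 4496 and 4482 in these libraries and Rfc4 2920, 2978, 3020 and 3106, with spans of 0.04 and 0.09. Rfc1, the large loader subunit, had 3608 with spironolactone, 3459 in ethanol, 3164 with 1 nM and 3232 with 100 nM aldosterone. Its 1 nM library was the lowest, by 0.13 below ethanol, and the 2 dimmer probe sets were also lower there than in ethanol, by 0.13 and 0.30. Rfc2 and Rfc3 spanned 0.12 and 0.16.

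RPA coats single-stranded DNA at the fork. Rpa1, its large subunit, spanned 0.04. Rpa2 had 2292 with spironolactone, 2218 in ethanol, 2232 with 1 nM and 2133 with 100 nM aldosterone. Rpa3, the small subunit, had 2037, 2287, 2319 and 2256 in these libraries. Rpa3 was lowest with spironolactone, by 0.15 to 0.19 below each of the others on the log2 scale, and had only 1 probe set. Rpa2 was highest there, but lowest there in its second probe set, by 0.11 below 100 nM.

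Among the polymerase genes Pold1, the catalytic subunit of polymerase delta, varied most. It had 1362 with spironolactone, 1281 in ethanol, 1279 with 1 nM and 1631 with 100 nM aldosterone. The 100 nM library stood above the other 3, by 0.35 over ethanol and over 1 nM, and spironolactone differed from it by -0.26. The second probe set had 457 with spironolactone, 494 in ethanol, 544 with 1 nM and 571 with 100 nM aldosterone. It too was highest with 100 nM, by 0.21 over ethanol, with spironolactone lower than 100 nM by 0.32. Between 100 nM and 1 nM it differed by 0.07.

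Pold2, the partner subunit of Pold1, spanned 0.13 and was highest with spironolactone. Pole, the catalytic subunit of polymerase epsilon, had 2281 with spironolactone, 2296 in ethanol, 2095 with 1 nM and 2164 with 100 nM aldosterone. Polymerase alpha, which extends the primers, had Pola1 at 2181, 2042, 2057 and 2310 in these libraries and Pola2 at 1607, 1774, 1531 and 1631. Pola1 was highest with 100 nM, by 0.18 over ethanol, while Pola2 was highest in ethanol and lowest with 1 nM, by 0.21. These subunits of 1 enzyme had their highest signals in different libraries. The primase subunits Prim1 and Prim2 spanned 0.09 and 0.04.

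Fen1, the flap nuclease of lagging strand maturation, had 5820 with spironolactone, 5366 in ethanol, 5353 with 1 nM and 5766 with 100 nM aldosterone, so that spironolactone and 100 nM lay together above the other pair. The second Fen1 probe set did not give this, with 3222 with spironolactone, 3195 in ethanol, 2916 with 1 nM and 3035 with 100 nM aldosterone. Lig1, the ligase that seals the nicks, had its highest signal in ethanol and its lowest with 1 nM, 0.15 apart.

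For nucleotide supply, the ribonucleotide reductase subunit Rrm1 had 4767 with spironolactone, 4746 in ethanol, 4832 with 1 nM and 4728 with 100 nM aldosterone. Rrm2, the subunit whose transcript peaks in S phase, had 11342, 11390, 11063 and 11208 in these libraries. These genes spanned 0.03 and 0.04, and thymidine kinase Tk1 spanned 0.12. Tyms, thymidylate synthase, was measured by dim probe sets, with 196 with spironolactone, 153 in ethanol, 223 with 1 nM and 208 with 100 nM aldosterone. Ethanol was the lowest, by 0.55 below 1 nM and 0.45 below 100 nM on the log2 scale. The second probe set was lower with both doses than in ethanol, the other way, but higher with spironolactone, with 116 with spironolactone, 101 in ethanol, 87.9 with 1 nM and 92.3 with 100 nM. A probe set annotated with Tyms together with its pseudogene Tyms-ps, which the rule leaves out, had 4044 with spironolactone, 4185 in ethanol, 4151 with 1 nM and 4283 with 100 nM, a span of 0.08.

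Chromatin is rebuilt and methylated behind the fork. Dnmt1, the maintenance DNA methyltransferase, had signals of 5095 with spironolactone, 4747 in ethanol, 4472 with 1 nM and 4852 with 100 nM aldosterone. It was highest with spironolactone and lowest with 1 nM, and its 3 probe sets gave nearly 1 value for that log2 difference, 0.19, 0.18 and 0.18. Uhrf1, which recruits Dnmt1 to hemimethylated DNA, had 3273 with spironolactone, 3419 in ethanol, 2979 with 1 nM and 3426 with 100 nM aldosterone. It was lowest with 1 nM, by 0.20 below ethanol, but its second probe set was lowest in ethanol, 0.19 below 1 nM. Chaf1b, a chromatin assembly subunit, spanned 0.09.

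**Figure D3:**
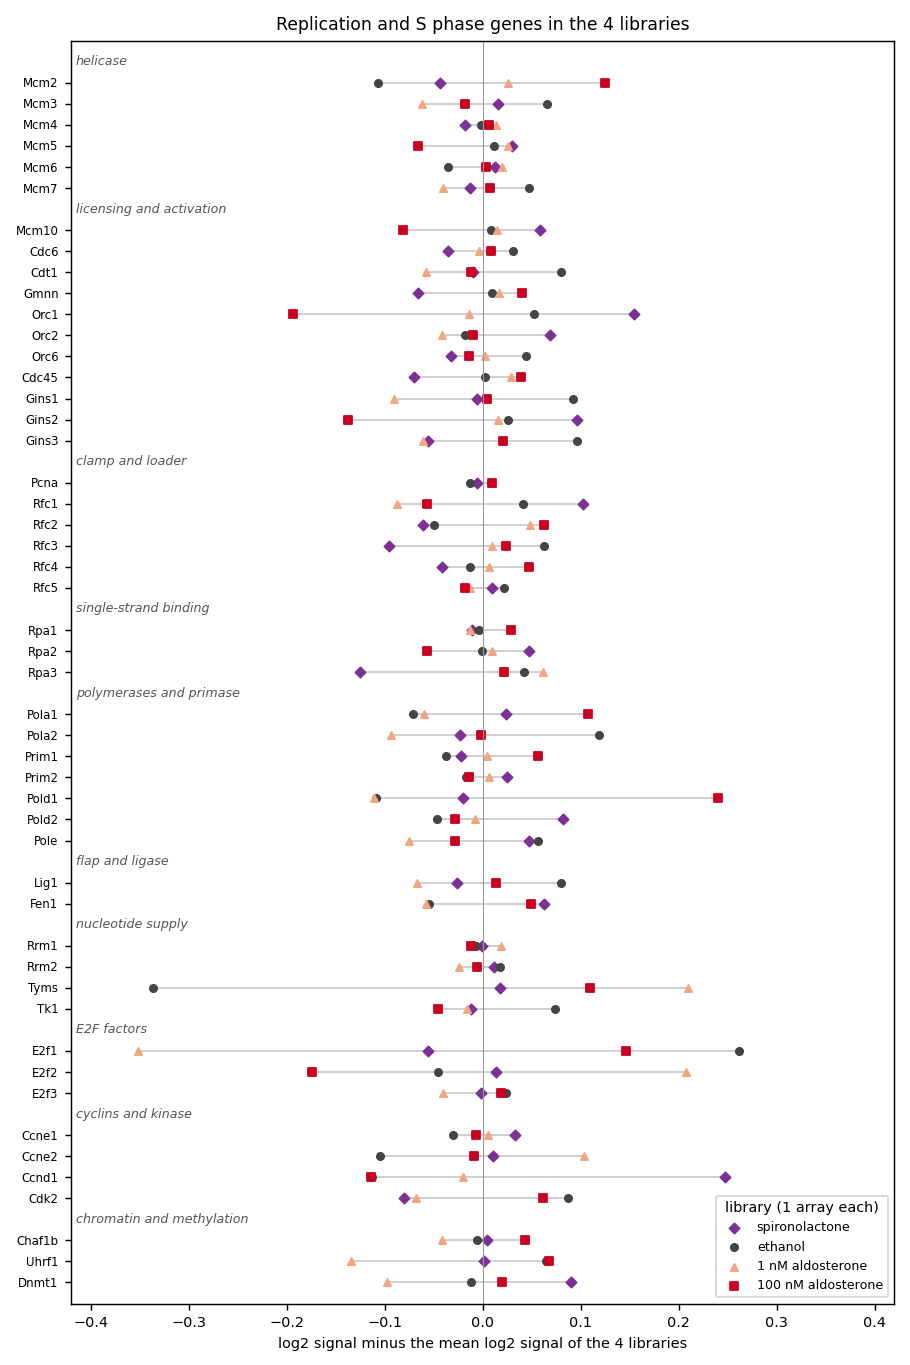
Log2 signal of the 49 replication genes in each library minus the gene's mean over the 4 libraries, grouped by role, with 1 array per treatment and a grey line over the span. Most genes stay within 0.1 of their mean, and E2f1, Tyms, E2f2, Ccnd1, Pold1 and Orc1 spread most.

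Setting 100 nM aldosterone against ethanol addresses the effect of the higher hormone dose after 3 h. The median log2 difference of the members was -0.00588, against -0.00459 over all genes and -0.00616 over those above the 75th percentile, and 22 of 49 were higher (44.9%; 48.7% of all genes). Pold1 and Tyms were at least 25% higher, 2 members (4.08%), where 7.07% of all genes and 1.74% of those above the 75th percentile (bright genes below) were. No member was lower by that factor, where 6.48% and 2.02% were. No member was 1.5-fold higher or lower, where 2.39% and 1.72% of all genes were. Tyms was counted, here and in the comparisons below, by the dim probe set described above. For 100 nM against ethanol its second probe set gave -0.13, and the one shared with Tyms-ps 0.034. In a bulk culture, fewer cells in S phase and less RNA per cell cannot be told apart, and neither was measured here.

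For 1 nM aldosterone against ethanol, E2f1 stood out at -0.61. The median of the members was -0.00907, against -0.00641 over all genes, and 22 of 49 were higher (48.3% of all genes). Tyms was the 1 member at least 25% higher (7.9% of all genes and 2.1% of bright ones) and E2f1 the 1 member lower by that factor (7% and 2.31%). E2f1 was also the only member 1.5-fold lower, where 2.07% of all genes were, and 0 were 1.5-fold higher, where 2.61% were.

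Between the doses, 100 nM against 1 nM, the members had a median of 0.0187, against 0.0047 over all genes, and 29 of 49 were higher (59.2%; 51.3% of all genes). E2f1 and Pold1 were at least 25% higher with 100 nM (6.57% of all genes and 1.86% of bright ones) and E2f2 lower by that factor (6.6% and 1.85%). At 1.5-fold 0 members were higher or lower (2.04% and 1.96% of all genes). The 3 chromatin and methylation genes were all higher with 100 nM, with a median of 0.12, as were the 2 flap and ligase genes, with 0.094. Every other role held genes of both directions. The second probe sets of Uhrf1 and Dnmt1 gave smaller differences, 0.036 and 0.039, and the dimmest of Dnmt1 gave 0.088. Both dose comparisons with ethanol share the ethanol library, and this one shares a library with each of them.

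Setting spironolactone against 100 nM aldosterone addresses the effect of the antagonist at 1 hormone dose. The members had a median of -0.0146, against -0.00273 over all genes, and 23 of 49 were higher (49.3% of all genes). Ccnd1 and Orc1 were at least 25% higher (6.49% of all genes and 2.38% of bright ones), and 0 were lower by that factor (8.13% and 2.05%). At 1.5-fold 0 members were higher or lower (1.83% and 2.51% of all genes). Pold1, Orc1, Gins2 and Mcm2 had their highest or lowest signal of all libraries with 100 nM aldosterone. Here they differed with the opposite sign to 100 nM against ethanol (-0.26, 0.35, 0.23 and -0.17). Both comparisons use that 1 library, and with it as the extreme the signs are opposed by construction.

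Against ethanol, spironolactone gave a median of -0.00613 over the members and -0.00668 over all genes, with 24 of 49 higher (48.2% of all genes). Ccnd1 and Tyms were at least 25% higher (6.19% of all genes and 1.9% of bright ones) and 0 were lower by that factor (7.42% and 1.86%), with E2f1, at -0.32, just short of it. At 1.5-fold 0 members were higher or lower (2.17% and 2.03% of all genes). Spironolactone against 1 nM aldosterone, which differ in dose as well as antagonist, gave a median of 0.0276 over the members and 0.00221 over all genes. Of the 49 members 31 were higher (63.3%), where 50.7% of all genes and 53.7% of the bright ones were, and 0 were past 25% in either direction, where 5.79% of all genes were higher and 7.6% lower, and 1.57% and 1.3% of the bright ones. At 1.5-fold 0 members were higher or lower (1.75% and 2.66% of all genes).

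**Figure D4:**
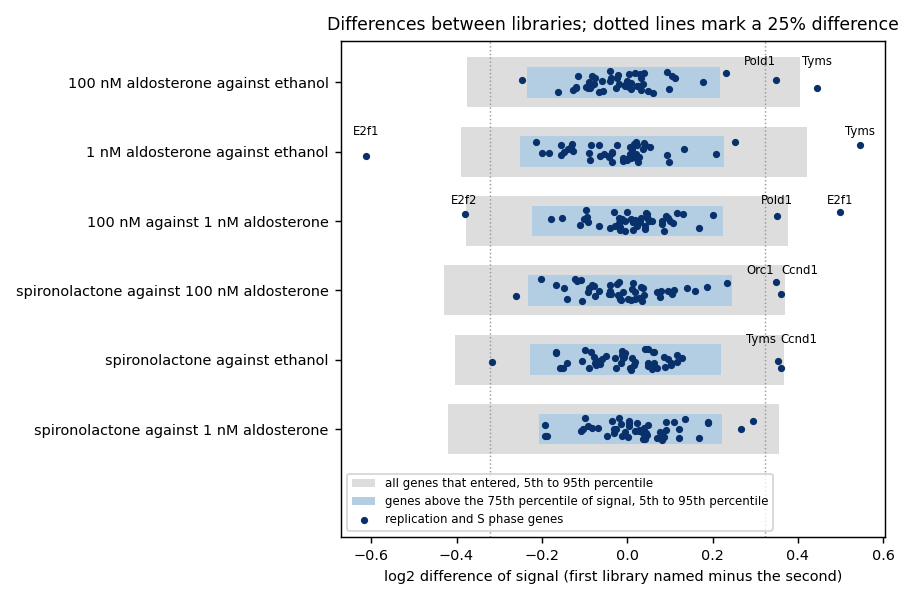
Log2 differences of the 49 replication genes (points, spread vertically at random) in the 6 pairs of libraries, the first library named minus the second, over bars from the 5th to the 95th percentile of all entered genes (grey) and of genes above the 75th percentile of signal (blue). Members past a 25% difference, marked by dotted lines, are named, and none is past it for spironolactone against 1 nM aldosterone.

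By library, the members' lowest signal was with 1 nM aldosterone in 19 of 49 genes (38.8%), against 26.3% of all genes, and in 10 genes in each of the spironolactone, ethanol and 100 nM libraries (25%, 23.5% and 25.2% of all genes). The highest was in ethanol in 17 (27.1% of all genes), with spironolactone in 13 (24%), with 100 nM in 11 (25.5%) and with 1 nM in 8 (23.5%). These differences are small: with signals centred, in each library, on the median of the genes that entered, the ethanol library was the lowest in 18 members in place of 10. The 19 genes lowest with 1 nM came from several roles, and their log2 differences from ethanol ran from -0.61 (E2f1) to -0.0016 (Pold1). In the second probe sets of Mcm3, Orc2, Rpa1, Pold1, E2f3 and Uhrf1, all among the 19, 1 nM was higher than ethanol. The log2 differences were 0.10, 0.15, 0.011, 0.14, 0.19 and 0.19. In those of Mcm7, Cdt1, Gins1, Gins3, Rfc1, Fen1, Rrm2, E2f1 and Dnmt1 it was lower, and the rest of the 19 had no second probe set above the filter. Of the 69 other replication and S phase genes described below, 21.7% were lowest with 1 nM, and of the G2 and mitosis genes 26.5%.

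Other probe sets of the same gene are the only check within these libraries, and they share each library's RNA and array. For 33 members a second probe set passed the filter. The sign of the difference was shared by both in 17 of 33 for 100 nM against ethanol (51.5%; 52.0% of all genes with 2 or more), in 22 for 1 nM against ethanol (66.7%; 54.7%), in 22 for 100 nM against 1 nM (66.7%; 54.96%), in 19 for spironolactone against 100 nM (57.6%; 54.4%), in 20 against ethanol (60.6%; 54.9%) and in 19 against 1 nM (57.6%; 53.4%). The median gap between both probe sets was 0.11 on the log2 scale for 100 nM against ethanol, larger than the median size of the members' difference, 0.059.

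A stricter count asked that every probe set above the filter differ by at least 1.1-fold in the same direction. For 100 nM against ethanol this held for Orc1, lower, and Pold1, higher, 2 of 33 members (6.06%), where 8.01% of the 5218 genes with several probe sets met it. For 1 nM against ethanol it held for E2f1 and Gins1, both lower (6.06%; 8.83% of all), and between the doses for E2f1, Orc1 and E2f2 (9.09%; 8.14%). For spironolactone against 100 nM it held for Pold1, lower, and E2f2, higher (6.06%; 8.8%), against ethanol for E2f1 and Gins3, lower, and Tyms, higher (9.09%; 8.14%), and against 1 nM for E2f1 and Dnmt1, both higher (6.06%; 6.92%). These shares lay near those of all genes. The Tyms probe sets counted here were dim. The bright one shared with Tyms-ps, which the rule leaves out, gave -0.049 for spironolactone against ethanol.

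**Figure D5:**
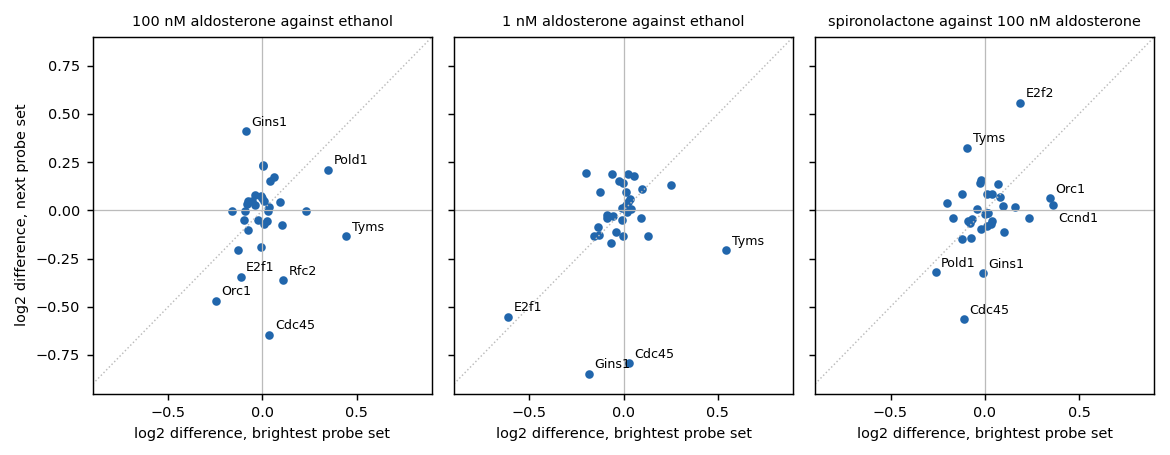
Log2 difference given by the second brightest probe set against that of the brightest, for the 33 replication genes with 2 or more probe sets above the filter, in 3 comparisons; the dotted line marks equal values. E2f1 lies near the line for 1 nM aldosterone against ethanol (-0.61 and -0.55), as does Pold1 for spironolactone against 100 nM (-0.26 and -0.32). For 100 nM against ethanol Pold1 gave 0.35 and 0.21. Tyms lies in quadrants of opposite sign.

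Of 69 further replication and S phase genes that entered, the median span was 0.16, the same as over bright genes. Their span was under 1.1-fold in 34.8%, against 40.7% of bright genes, and reached 25% in 13.0%, against 12.3%. The number at least 25% higher and lower by that factor was 0 and 1 for 100 nM against ethanol, 1 and 0 for 1 nM against ethanol and 0 and 0 between the doses. With spironolactone the numbers were 2 and 1 against 100 nM, 1 and 3 against ethanol, and 2 and 2 against 1 nM. In each direction 5.79% to 8.13% of all genes and 1.3% to 2.38% of bright ones were past 25%, depending on the comparison. The largest span was that of E2f4, a repressor of the E2F family, with 117 with spironolactone, 57.9 in ethanol, 67.2 with 1 nM and 67.0 with 100 nM aldosterone, signals near the filter in a single probe set. Next came the kinase inhibitor Cdkn1b, the cyclin D kinase Cdk6, the E2F partner Tfdp2, the phosphatase Cdc25a and the origin subunit Orc4, with spans of 0.36 to 0.41. Cdk6 was highest with spironolactone, by 0.41 over 100 nM aldosterone, and higher by 0.30 in its second probe set.

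The 34 G2 and mitosis genes that entered, from the next phase of the cycle, had a median span of 0.12. In each comparison at most 1 of them was 25% higher and at most 1 lower by that factor, where 1.3% to 2.38% of the bright genes were in each direction, a share under 1 gene of 34. Nuf2, a kinetochore component with 1 probe set, had 1472 with spironolactone, 1455 in ethanol, 1542 with 1 nM and 851 with 100 nM aldosterone, so that the 100 nM library stood below the other 3. After it the largest spans were those of the spindle motor Kif11 (0.41), the mitotic transcription factor Foxm1 (0.30), the kinetochore protein Cenpf (0.27), the phosphatase Cdc25c (0.27) and the kinetochore component Ndc80 (0.26).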

How the data were processed

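Total RNA of 4 transfected mDCT cultures, 1 per treatment, was labelled as biotinylated cRNA from 250 ng and hybridised to an Affymetrix mouse array. The deposited values are probe set signal intensities on a linear scale, which the authors made with MAS5, per the submitters' processing notes. Its version, scaling target and detection calls were not given in the sources used here. A trimmed mean signal of 497 in each array, after leaving out 2% at each end and 64 control probe sets, shows a common scaling, and none was added. No other sample columns were present.

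Of 45101 probe sets, 34945 had 1 gene symbol in the platform annotation and 932 several, which named no gene. The filter, a mean log2 signal at the median of all probe sets (signal 55.9), left 11057 of 18193 genes; the 75th percentile lay at a signal of 419.8. Differences are of log2 signal with no pseudocount, counted at 25% (the higher signal over the lower) and at 1.5-fold. Each comparison was fitted to no model, since there was 1 library per treatment. Members named in full were those at least 1.5-fold apart, the 16 with the largest and 4 with the smallest span, and the middle member by span of each role. E2f3, Gins3 and Gmnn were added after their values were seen. The members, lists and folds were chosen with earlier results of these data known; the span under 1.1-fold, the probe set counts, the E2F core and the hormone element were added after seeing these values. Python 3.11.15, numpy 2.4.6 and pandas 2.3.3 were used. The counting code was tested on simulated data with planted changes and equal noise in all probe sets. That noise was not modelled on these arrays, so the test does not measure false counts here.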

Additional observations from a re-analysis of the deposited data

How the results depend on the processing

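The median log2 difference of the members lay between -0.0185 and 0.039 in all 42 combinations of 6 comparisons and 7 alternatives (quantile normalization, centring on the median of the genes that entered, no filter, a filter at the 75th percentile, log2(signal + 50), the median over probe sets and the next brightest probe set), and each moved by under 0.05. Quantile normalization changed no count of members past 25% by over 1.5 times, and neither did centring or removing the filter. The filter at the 75th percentile, which leaves out E2f1, E2f2 and Tyms, gave 1 higher for 100 nM against ethanol, 0 higher and 0 lower for 1 nM against ethanol, 1 higher and 0 lower for 100 nM against 1 nM, and 1 higher for spironolactone against ethanol. With log2(signal + 50) there were 0 lower for 100 nM against 1 nM and 1 higher for spironolactone against ethanol. The median over probe sets gave 0 higher and 1 lower for 100 nM against ethanol, 0 higher and 3 lower for 1 nM against ethanol, 1 higher and 1 lower for spironolactone against 100 nM, 0 higher and 1 lower for spironolactone against ethanol, and 1 higher for spironolactone against 1 nM. The next brightest probe set, over 33 members, gave 1 higher and 4 lower, 0 and 3, and 1 and 3 for the dose comparisons (100 nM and 1 nM against ethanol, 100 nM against 1 nM). With spironolactone it gave 2 lower against 100 nM, 1 higher and 2 lower against ethanol, and 2 and 2 against 1 nM. It also gave 7 members highest with spironolactone and 9 in ethanol, and 6 lowest in each of the ethanol and 100 nM libraries; centring gave 18 lowest in ethanol. Tyms reversed in that probe set for 1 nM against ethanol, to -0.21. The shares of bright genes given above apply to the filter at the 75th percentile. For the other alternatives no share of all genes was taken. Those counts thus have no background beside them and show only how the members' numbers moved. Fewer members explain part of the smaller counts by construction. The cause of the other changes was not tested. No paired analysis was possible because each treatment had 1 library.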

Other observations

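The dimmer probe sets of some replication genes gave larger differences than their brightest. A second Cdc45 probe set had signals of 67.4 with spironolactone, 156 in ethanol, 90.0 with 1 nM and 99.6 with 100 nM aldosterone, highest in ethanol, where the brightest spanned 0.11. The dimmest probe set of Rfc2 had 612, 315, 624 and 505 in these libraries, lowest in ethanol, while the second had 887, 1077, 1163 and 837. The second probe set of Cdkn1b, which encodes the inhibitor p27, differed by -0.78 between spironolactone and ethanol, and the brightest by -0.04. These values are given with no explanation. Of the 108 probe sets of the 49 members, 14 lay under the filter.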
